A study of Mus musculus with 6 samples.

Results

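The 9 genes described here carry iron into cells, store it and sense it: Tfrc, Steap3, Slc11a2, Slc11a1, Fth1, Ftl1, Ncoa4, Ireb2 and Aco1. They were taken by name for their known roles, with earlier results of these data known. They are 9 of the 49315 genes in the count table and of the 16956 genes that passed the filter on low counts. All 9 passed that filter. RNA was measured by poly(A)-selected RNA sequencing of mouse bone marrow in 3 KO libraries (miR-181a2b2-/-, replicates 2, 3 and 4) and 3 WT libraries (miR-181a2b2flox/flox, replicates 1, 3 and 4). Both groups received the HFSC diet and hindlimb ischemia, so neither an animal on another diet nor an uninjured one is in the comparison. The labels name no Cre driver and give neither the age of the mice nor the time between ischemia and collection.

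Most iron in bone marrow enters red cell precursors, which need it for haem. Transferrin carrying ferric iron binds the receptor encoded by Tfrc and is taken into endosomes. There the reductase encoded by Steap3 makes ferrous iron, and the transporter encoded by Slc11a2 (DMT1) moves it into the cytosol. Slc11a1 (NRAMP1) encodes a related transporter of the phagosome in macrophages and neutrophils. Iron that is not used is held in ferritin, a shell of heavy chains (Fth1), which oxidise iron, and light chains (Ftl1), which help form its core. Ncoa4 encodes the receptor that delivers ferritin for breakdown. The iron regulatory proteins encoded by Aco1 (IRP1) and Ireb2 (IRP2) bind hairpins in messenger RNAs, the iron-responsive elements, when iron is scarce: in a 5' UTR they block translation, and in the 3' UTR of Tfrc they protect the RNA from decay.

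Those hairpins are shown because they are the sites through which the sensing genes act on the transport and storage genes in the list. The search asked for the loop CAGTGN on an upper stem of 5 pairs, then an unpaired C on the 5' side. Below these it asked for a lower stem with at least 3 of 5 pairs, G with U allowed. The sense strand of annotated UTRs in GENCODE M21 (GRCm38) was searched. For each gene the search took the main coding transcript and its other coding transcripts that GENCODE tags as basic. It found 1 hairpin in the 5' UTR of Fth1 (chr19:9982733-9982759, plus strand), 1 in the 5' UTR of Ftl1 (chr7:45459780-45459806, minus strand) and 4 in the 3' UTR of Tfrc (plus strand, at chr16:32631220-32631246, chr16:32631599-32631625, chr16:32631664-32631690 and chr16:32631711-32631737). Each is printed 5' to 3' as DNA from the GRCm38 genome, with the 6-base loop in capitals.
Fth1 5' UTR: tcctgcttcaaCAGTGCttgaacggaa
Ftl1 5' UTR: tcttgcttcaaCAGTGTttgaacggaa
Tfrc 3' UTR, hairpin 1: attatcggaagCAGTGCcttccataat
Tfrc 3' UTR, hairpin 2: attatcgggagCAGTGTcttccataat
Tfrc 3' UTR, hairpin 3: tatatcggagaCAGTGAtctccatatg
Tfrc 3' UTR, hairpin 4: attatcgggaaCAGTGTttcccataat
Over main coding transcripts only, these letters occurred in 0.0341% of 20534 annotated 5' UTRs and in 0.155% of 20695 annotated 3' UTRs. Among 3' UTRs within 20% of the length of that of Tfrc, 0.48% held one. The searched UTRs of the other 6 genes held no match to these letters. A hairpin with an unpaired base in its upper stem would not have matched. The absence of a match therefore does not show that a gene lacks an iron-responsive element.

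The deleted locus encodes 2 microRNAs, miR-181a and miR-181b, whose mature forms share a seed and which the locus on chromosome 1 (Mir181a-1 and Mir181b-1) also encodes with the same letters. They are shown, from RefSeq (GRCm38.p6), because the seed defines which of the iron transcripts could pair with them. The seed, bases 2 to 8, is in capitals.
mmu-miR-181a-5p: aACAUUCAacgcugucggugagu
mmu-miR-181b-5p: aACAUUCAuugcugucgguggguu
A seed match of 7 or 8 bases occurred in 2 of the 9 annotated 3' UTRs, those of Ireb2 and Ncoa4, and in 19.4% of all 20695 annotated 3' UTRs. Among 3' UTRs within 20% of the length, the share was 39.6% for Ireb2 and 30.9% for Ncoa4. The 3' UTR of Tfrc held a match of 6 bases, and those of the other 6 genes held none. The searched letters were GAATGT, extended by a T before it or an A after it, on the sense strand. The 3 sites are printed with their upstream bases as DNA from GRCm38, with the matching bases in capitals; they lie at chr9:54911787-54911808, chr14:32179268-32179289 and chr16:32632243-32632264, all on the plus strand.
Ireb2 3' UTR: caaatcagtattcTGAATGTAg
Ncoa4 3' UTR: atctgtaaagctcaGAATGTAa
Tfrc 3' UTR: aaagctgccacctgaGAATGTc
A match is a description of the letters only. The log2 fold changes of Ireb2, Ncoa4 and Tfrc were -0.06, 0.14 and -0.28, and none of the 3 passed the threshold.

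Libraries held 33861440 to 39566582 counts in KO and 34000323 to 40359093 counts in WT, and the rows of both deleted hairpins (Mir181a-2 and Mir181b-2) were 0 in all 6 libraries, so this poly(A) count table cannot check the deletion. The source label is bone marrow, but white adipose tissue is named in the text on RNA isolation. The adipocyte genes Lep, Plin1 and Cidec stayed at or below 0.208 CPM (counts scaled to a common library size) in KO and 0.289 CPM in WT. The whole list of 7 adipocyte genes summed to 66.4 to 83.0 CPM in KO and 54.5 to 62.7 CPM in WT, mostly from Lipe and Fabp4, and the median log2 fold change of its 4 tested genes was 0.39. The 11 neutrophil genes together reached 56358 to 69756 CPM in KO and 37560 to 47397 CPM in WT. The labels do not give sex. Xist, expressed in female cells, was at 6.65 CPM in KO replicate 2 and at 3.50 and 5.06 CPM in WT replicates 3 and 4, and at most 0.22 CPM in the other 3 libraries. The Y-linked gene Ddx3y was at 82.6 to 86.0 CPM in KO and 84.5 to 92.0 CPM in WT, so Y-linked RNA was present in all 6 libraries. Over all genes, edgeR's quasi-likelihood test with Benjamini-Hochberg adjustment at 0.05 called 159 genes higher and 258 lower in KO. Nothing in the labels says that replicates are separate mice, so the p-values cover the spread among 6 libraries, which may be technical.

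Of the 9 iron genes, Steap3 was lower in KO by that test and none was higher. Of all genes tested, 2.46% were called, 0.938% higher and 1.52% lower. At an unadjusted p under 0.05, 4 of the 9 were lower (Tfrc, Steap3, Slc11a2 and Aco1) and 0 were higher, beside 23.9% of all genes at that level, 12.2% lower and 11.7% higher. No member was called higher by DESeq2 or by limma either. The KO and WT values did not overlap for 4 of the 9, with Ftl1 above and Steap3, Slc11a2 and Aco1 below in KO. This happened for 29.1% of all genes, 14.4% above and 14.7% below. The median log2 fold change of the 9 was -0.06, beside -0.01 over all genes tested.

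**Figure D1:**
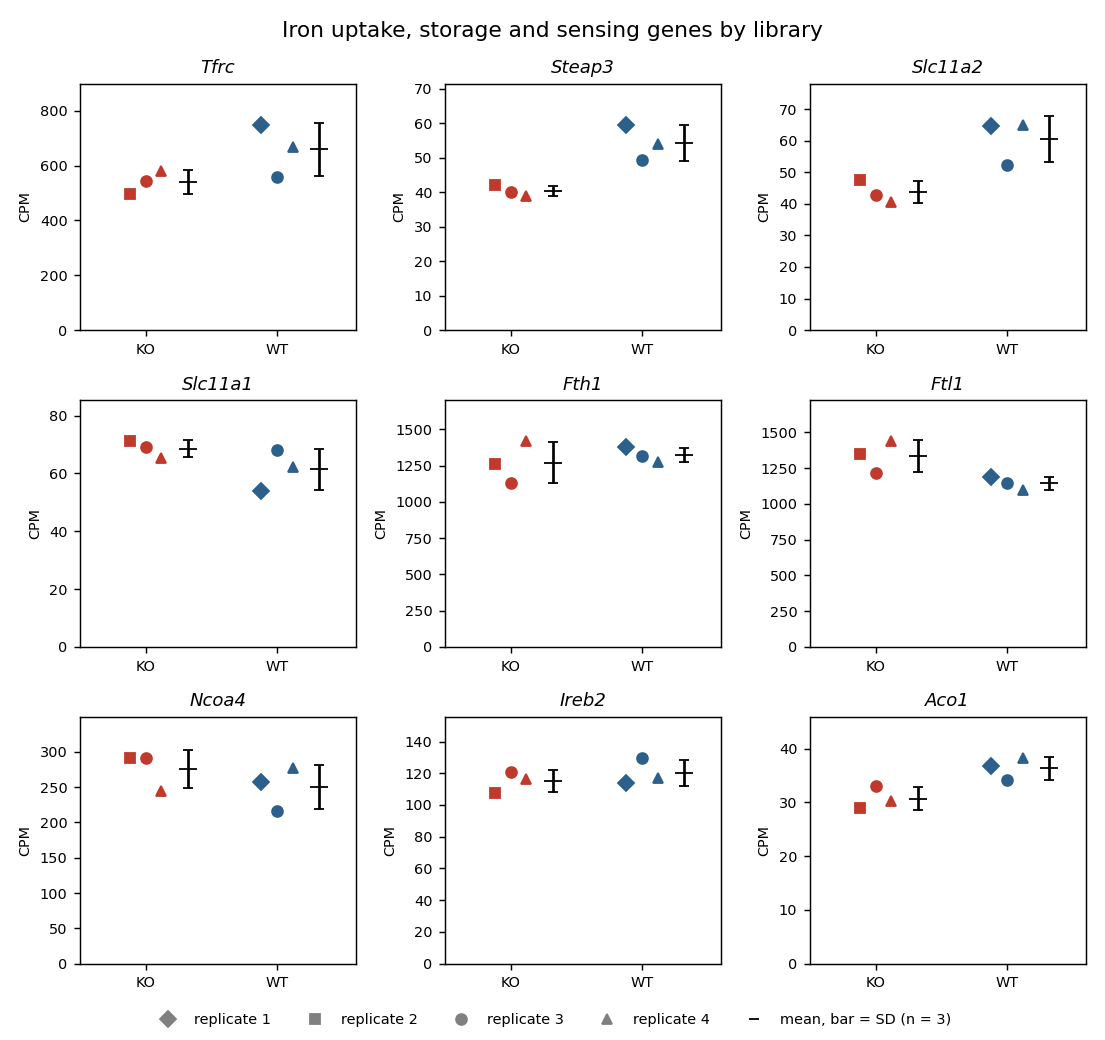
Each panel plots 1 gene's level in CPM (TMM-scaled, linear axis from 0) in 3 KO libraries (left) and 3 WT libraries (right), with a marker shape per replicate number and the mean ± SD beside them. The KO points of Steap3, Slc11a2 and Aco1 lie below all WT points, those of Ftl1 lie above them, and the other 5 genes overlap.

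Among the uptake genes, Steap3 was lower in KO, and Tfrc and Slc11a2 had negative log2 fold changes that missed the threshold. Tfrc (ENSMUSG00000022797, chr16:32608920-32632794, plus strand) had 496, 545 and 582 CPM in KO replicates 2, 3 and 4, against 749, 559 and 668 CPM in WT replicates 1, 3 and 4. The groups overlapped, because KO replicate 4 was above WT replicate 3. Its mean was 541 ± 42.8 CPM in KO and 659 ± 95.5 CPM in WT (SD, n = 3 each). Its log2 fold change of -0.28 ± 0.13 (SE) had a 95% interval from -0.57 to -0.00081, and the edgeR adjusted p was 0.208. Without WT replicate 1, the highest of the 6, it was -0.18.

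Steap3 (ENSMUSG00000026389, chr1:120190757-120272705, minus strand), the endosomal reductase, had 42.0, 40.0 and 39.0 CPM in KO, against 59.6, 49.3 and 53.9 CPM in WT. Every KO library was below every WT library, and the KO values lay within a narrower range. Steap3 averaged 40.3 ± 1.52 CPM in KO and 54.3 ± 5.13 CPM in WT (SD, n = 3 each), which is 74.3% of the WT level. It fell by 0.43 ± 0.09 (SE) on the log2 scale with an edgeR adjusted p of 0.0474. That call was lost whichever library was left out (edgeR adjusted p 0.0535 to 0.184), with Xist as a covariate (0.0695) and with each library's trend on length and GC content removed (0.0751); all of these values remained negative, from -0.49 to -0.36.

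Slc11a2 (ENSMUSG00000023030, chr15:100387898-100425072, minus strand), which moves the reduced iron out of the endosome, had 47.4, 42.9 and 40.7 CPM in KO, against 64.7, 52.3 and 65.0 CPM in WT. The highest KO library was below the lowest WT library. Its mean was 43.7 ± 3.42 CPM in KO and 60.7 ± 7.28 CPM in WT (SD, n = 3 each), and the log2 fold change of -0.47 ± 0.11 (SE) was the largest in size of the 9. Its edgeR adjusted p of 0.0525 missed the threshold. It passed in 8 of 16 alternatives, among them DESeq2 (adjusted p 0.00826) and limma (adjusted p 0.0323). In edgeR it passed without KO replicate 2 (adjusted p 0.0455) or without WT replicate 3 (adjusted p 0.0456). It did not pass without KO replicate 3 (0.0752), KO replicate 4 (0.201), WT replicate 1 (0.142) or WT replicate 4 (0.183). Nor did it pass with Xist as a covariate (edgeR adjusted p 0.0866) or with the length and GC trends removed (0.0858). All 16 values were negative, from -0.57 to -0.39.

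The summed level of red cell precursor markers was also lower in KO. The 11 erythroid markers in the table summed to 3504 to 4415 CPM in KO and 4838 to 7057 CPM in WT, with no overlap. Of these, 3 were lower and 0 higher by edgeR, among them Ermap, an erythroid membrane protein, and Sptb, which belongs to the skeleton under that membrane. The 11 markers' median log2 fold change was -0.51. DESeq2 called 5 lower and limma 4, and neither called one higher. Over all genes, 1.52% were called lower by edgeR, 743 of 30403 by DESeq2 and 562 of 16956 by limma. In such bulk samples, fewer cells of a type and less RNA per cell cannot be told apart. Set against the mean log2 level of the 11 markers in the same library, Steap3 differed between KO and WT by 0.06 (SD 0.0711 in KO and 0.138 in WT) and Slc11a2 by 0.02 (SD 0.0132 in KO and 0.12 in WT), whereas Tfrc was 0.21 higher in KO (SD 0.24 in KO and 0.0558 in WT), with KO replicate 2 below all WT libraries. Aco1, also below WT in CPM, was 0.25 higher on this scale (SD 0.194 in KO and 0.212 in WT). Slc11a1, Fth1, Ftl1, Ncoa4 and Ireb2 were 0.65, 0.43, 0.71, 0.63 and 0.43 higher in KO on it. Any gene whose change is near that of the markers lands near 0 on this scale, whatever cells express it. The scale therefore does not show the cell source of a gene. Erythroid markers were not used to choose the 9 genes, but both lists were chosen with earlier results of these data known. The part of red cell precursors in the lower Steap3 values was not tested.

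**Figure D2:**
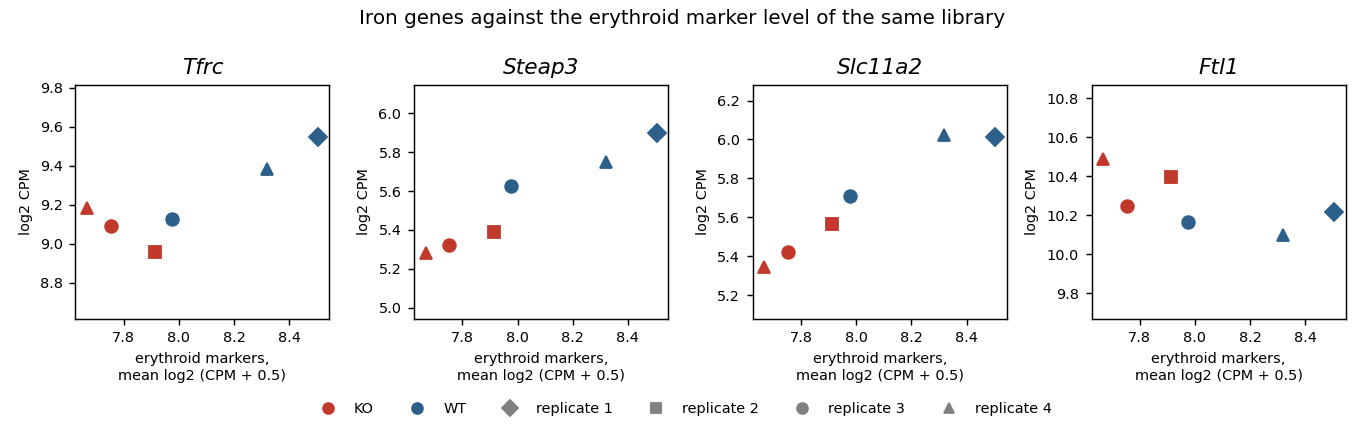
The 4 panels plot log2 CPM of Tfrc, Steap3, Slc11a2 and Ftl1 on the vertical axis against the mean log2 CPM of 11 erythroid markers on the horizontal axis, 1 point per library, with KO in red, WT in blue and a marker shape per replicate number. The KO libraries lie at lower marker means (7.667 to 7.913) than the WT libraries (7.976 to 8.504). The KO points of Steap3 and Slc11a2 lie below their WT points.

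Slc11a1 (ENSMUSG00000026177, chr1:74375195-74386062, plus strand), the phagosomal transporter, did not share the lower values of its relative Slc11a2. It had 71.0, 69.3 and 65.4 CPM in KO, against 54.0, 68.0 and 62.3 CPM in WT. WT replicate 1 was the lowest of the 6, and the groups overlapped at WT replicate 3. The log2 fold change was 0.16 ± 0.10 (SE), with an edgeR adjusted p of 0.353 and a 95% interval of -0.06 to 0.38. It was 0.07 without WT replicate 1, 0.24 without WT replicate 3 and 0.09 with library totals in place of TMM. Of the 11 neutrophil markers, 4 were called higher and 0 lower, with a median log2 fold change of 0.52 (DESeq2 10 and limma 8 higher, both 0 lower). Over all genes, 0.938% were called higher by edgeR, 834 of 30403 by DESeq2 and 495 of 16956 by limma. The same tools called 1.52%, 743 and 562 lower. Of 10 macrophage markers 1, Siglec1, was lower and 0 were higher in edgeR, DESeq2 and limma, and their summed level was 285 to 365 CPM in KO and 278 to 306 CPM in WT. Of 8 monocyte markers 1 was higher and 0 lower by edgeR and limma, and 1 higher and 2 lower by DESeq2, with a sum of 2235 to 2665 CPM in KO and 1944 to 2375 CPM in WT. The part of these cells in the Slc11a1 values was not tested.

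The ferritin chains were the most abundant of the 9. Fth1 (ENSMUSG00000024661, chr19:9980598-9985098, plus strand) had 1260, 1134 and 1417 CPM in KO, against 1376, 1316 and 1277 CPM in WT. KO libraries were both the lowest and the highest of the 6. Fth1 averaged 1270 ± 142 CPM in KO and 1323 ± 49.8 CPM in WT (SD, n = 3 each), and its log2 fold change was -0.06 ± 0.11 (SE, 95% interval -0.31 to 0.19, edgeR adjusted p 0.789).

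Ftl1 (ENSMUSG00000050708, chr7:45457944-45459884, minus strand) had 1348, 1217 and 1437 CPM in KO, against 1191, 1147 and 1098 CPM in WT. Every KO library was above every WT library, by a small margin at KO replicate 3 and WT replicate 1. Its mean was 1334 ± 111 CPM in KO and 1145 ± 46.4 CPM in WT (SD, n = 3 each). The log2 fold change was 0.22 ± 0.11 (SE, 95% interval -0.02 to 0.46) and the edgeR adjusted p was 0.24. With each library's trend on length and GC content removed it was 0.0705 (edgeR adjusted p 0.699). Ferritin genes have many processed copies in the genome, and reads that fit several places may have been split or dropped. The 14 other ferritin rows in the table held at most 0.222% of the light chain counts and 0.118% of the heavy chain counts in any library. Exons of Gm10252 overlap those of Ftl1 on the opposite strand, and that row held 1071 counts over the 6 libraries, beside 276886 for Ftl1.

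The light and heavy chains were in a different proportion in the 2 groups. The ratio of Ftl1 to Fth1 counts was 1.07, 1.07 and 1.01 in KO replicates 2, 3 and 4, against 0.866, 0.872 and 0.860 in WT replicates 1, 3 and 4. Being taken within a library, the ratio does not depend on the scaling between libraries. The WT values lay within a narrow range and every KO value was above every WT value. The ratio averaged 1.05 ± 0.0333 in KO and 0.866 ± 0.00584 in WT (SD, n = 3 each), a log2 difference of 0.28, and the two-sided exact permutation test gave p = 0.1, the smallest value that 3 against 3 libraries allow. With each library's trend on total exon length and GC content removed the difference was 0.16. The GC content, taken from each gene's longest transcript, is 58.1% for Ftl1 and 50.0% for Fth1.

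The ratio of uptake to storage transcripts, Tfrc counts over the sum of Fth1 and Ftl1 counts, was 0.190, 0.232 and 0.204 in KO, against 0.292, 0.227 and 0.282 in WT. WT replicate 3 lay among the KO values. The ratio averaged 0.209 ± 0.0212 in KO and 0.267 ± 0.0349 in WT (SD, n = 3 each), a log2 difference of -0.35 with a two-sided exact permutation p of 0.2. It was -0.22 with the length and GC trends removed.

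**Figure D3:**
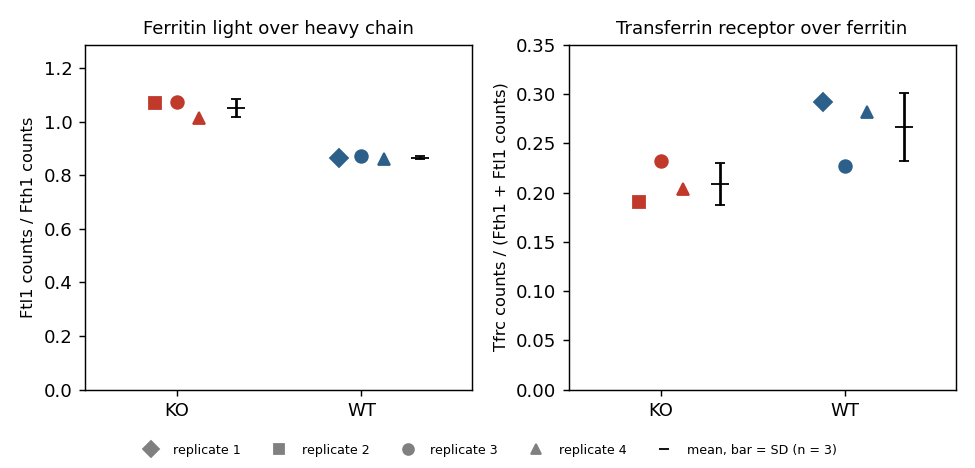
The left panel plots Ftl1 counts over Fth1 counts and the right panel Tfrc counts over the sum of Fth1 and Ftl1 counts, with 3 KO libraries on the left and 3 WT libraries on the right of each panel, and the mean ± SD beside them. The light to heavy chain ratio is 1.01 to 1.07 in KO and 0.860 to 0.872 in WT, and the receptor to ferritin ratios of the groups overlap.

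Ncoa4 (ENSMUSG00000056234, chr14:32159865-32179855, plus strand), the ferritin receptor for breakdown, had 291, 291 and 245 CPM in KO, against 258, 217 and 277 CPM in WT. The groups overlapped across most of their ranges. The log2 fold change was 0.14 ± 0.12 (SE, 95% interval -0.13 to 0.41) with an edgeR adjusted p of 0.513. It was 0.04 without WT replicate 3, 0.22 without KO replicate 4 or WT replicate 4, and 0.28 with the length and GC trends removed, and passed in none of these.

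The 2 sensing genes had different patterns. Ireb2 (ENSMUSG00000032293, chr9:54863789-54912530, plus strand), whose 3' UTR holds the 8-base seed match, had 107, 121 and 116 CPM in KO, against 114, 129 and 117 CPM in WT. The groups overlapped, and the log2 fold change was -0.06 ± 0.09 (SE, 95% interval -0.27 to 0.14) with an edgeR adjusted p of 0.701. Its sign turned to 0.07 when the trends on length and GC content were removed.

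Aco1 (ENSMUSG00000028405, chr4:40143081-40198338, plus strand) had 28.9, 33.0 and 30.2 CPM in KO, against 36.7, 34.1 and 38.2 CPM in WT. Every KO library was below every WT library, with KO replicate 3 close to WT replicate 3. Its mean was 30.7 ± 2.11 CPM in KO and 36.3 ± 2.08 CPM in WT (SD, n = 3 each). The log2 fold change was -0.24 ± 0.09 (SE, 95% interval -0.45 to -0.04) and the edgeR adjusted p was 0.152.

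**Figure D4:**
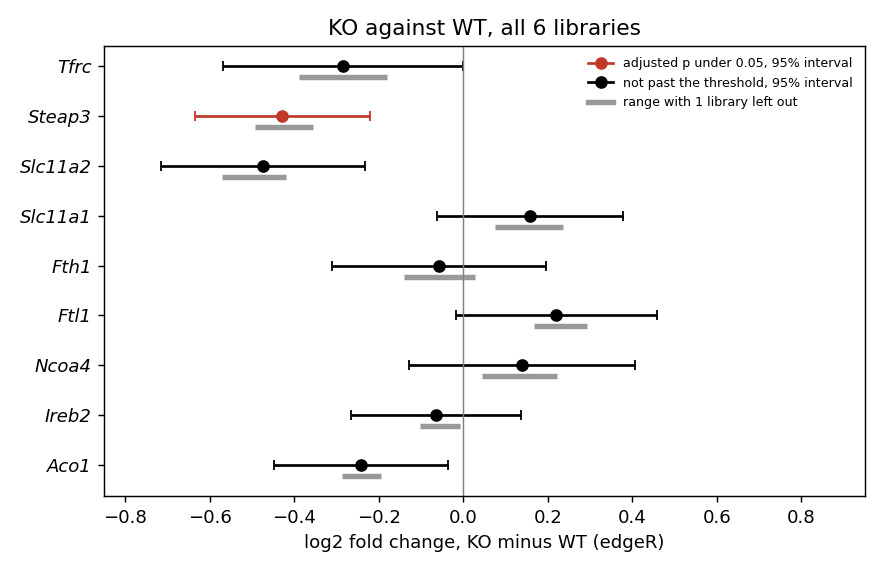
Log2 fold changes, KO minus WT, of the 9 iron genes with their 95% intervals from edgeR, ordered by role, with a grey bar for the range when 1 library was left out and red for the gene past the threshold. The intervals of Steap3 (-0.63 to -0.22), Slc11a2 (-0.72 to -0.23) and Aco1 lie below 0, that of Tfrc ends just below 0, and the other 5 include 0.

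Levels of different genes are compared per length, in TPM (counts divided by the length of the main transcript, then scaled to a common total). The ferritin chains stood far above the rest: Ftl1 was at 2436 ± 40.3 TPM in KO and 2367 ± 90.6 TPM in WT, and Fth1 at 2413 ± 96.4 TPM in KO and 2849 ± 104 TPM in WT. The ranges of the chains overlapped in KO and not in WT, where Fth1 was higher than Ftl1 in all 3 libraries. Tfrc followed at 196 ± 16.0 TPM in KO and 269 ± 28.5 TPM in WT, then Ncoa4 at 121 ± 19.1 TPM in KO and 123 ± 17.7 TPM in WT. Slc11a1 was at 52.6 ± 5.43 TPM in KO and 53.4 ± 9.23 TPM in WT. Ireb2 was at 35.4 ± 3.87 TPM in KO and 41.8 ± 5.06 TPM in WT, and Slc11a2 at 25.6 ± 3.05 TPM in KO and 40.1 ± 4.84 TPM in WT, and Ireb2 overlapped with both Slc11a1 and Slc11a2 in WT and with neither in KO. Steap3 (13.9 ± 1.25 TPM in KO, 21.0 ± 1.15 TPM in WT) and Aco1 (14.3 ± 1.86 TPM in KO, 19.0 ± 1.76 TPM in WT) were the lowest and overlapped in both groups. Of the 2 sensors, Ireb2 was above Aco1 in all 6 libraries. TPM carry no TMM factor, and the difference between KO and WT depended on the scaling. Fth1 was at 2322 to 2514 TPM in KO and 2730 to 2923 TPM in WT, without overlap, although its CPM overlapped. Ftl1 overlapped in TPM, although its CPM did not.

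A further 55 iron genes in 5 lists gave the surroundings of the 9. All 55 were in the table and 49 were tested. By edgeR 1 was higher in KO (Hp), 1 was lower (Tfr2) and 47 did not pass, with a median log2 fold change of 0.01. Of all genes tested, 0.938% were called higher and 1.52% lower. At an unadjusted edgeR p under 0.05, 5 of the 49 were higher and 6 lower, beside 11.7% and 12.2% of all genes.

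Of 13 tested genes of uptake and trafficking, 1 was lower, 0 were higher and the median was 0.12. Tfr2, the second transferrin receptor, which erythroid cells and liver use, had 22.7, 25.1 and 22.9 CPM in KO, against 40.7, 30.4 and 35.5 CPM in WT. It fell by 0.59 ± 0.12 (SE) on the log2 scale with an edgeR adjusted p of 0.0427, and KO lay below WT without overlap. That call was lost in edgeR without KO replicate 2 (adjusted p 0.0549), KO replicate 4 (0.153), WT replicate 1 (0.118) or WT replicate 4 (0.122) and with the length and GC trends removed (0.0528), with values of -0.59 to -0.48 in these fits. The genes of neutrophil granule proteins Lcn2, which captures bacterial siderophores, and Ltf, lactoferrin, had positive log2 fold changes of 0.53 (edgeR adjusted p 0.0767) and 0.38 (edgeR adjusted p 0.135), beside the higher neutrophil markers given above. DESeq2 called 2 genes of this list higher and 1 lower, and limma 1 each way.

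Of 7 tested genes of export and hepcidin control, edgeR, DESeq2 and limma each called 0, and 0 had an unadjusted edgeR p under 0.05. Slc40a1, ferroportin, the iron exporter, averaged 238 ± 6.93 CPM in KO and 225 ± 24.7 CPM in WT (SD, n = 3 each), a log2 fold change of 0.08 (edgeR adjusted p 0.665). Its sign depended on WT replicate 1, without which the value was -0.00223, and it was 0.00929 with library totals and 0.21 with the length and GC trends removed. Hamp, the hepcidin gene, had 1, 3 and 3 counts in KO and 1, 7 and 1 counts in WT and was not tested. Cp, a plasma ferroxidase, Tmprss6, a suppressor of hepcidin, and Erfe, an erythroid hormone acting on hepcidin, had log2 fold changes of 0.47, -0.49 and 0.80 with edgeR adjusted p of 0.398, 0.444 and 0.428. When 1 library was left out, Cp ranged over 0.22 to 0.85 and Erfe over 0.53 to 1.22, and Erfe was 0.33 with Xist as a covariate.

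Of 8 tested genes of iron chaperones and regulatory protein turnover, edgeR called 0, with 1 higher and 1 lower at an unadjusted p under 0.05; DESeq2 called 1 lower and limma 0. Fbxl5, the ubiquitin ligase subunit that removes the iron regulatory proteins when iron is plentiful, had 231, 339 and 386 CPM in KO and 251, 243 and 230 CPM in WT. KO replicate 2 lay among the WT values, and the log2 fold change was 0.40 ± 0.17 (SE, edgeR adjusted p 0.187). Without KO replicate 2 it was 0.59 and passed (edgeR adjusted p 0.0289), and it was 0.25 without KO replicate 4 and 0.25 with Xist as a covariate. Herc2, which acts on Fbxl5 protein, had a log2 fold change of -0.51 (edgeR adjusted p 0.107). It passed with DESeq2 (adjusted p 0.0278) and in edgeR without KO replicate 3 (-0.72, adjusted p 0.0156), and was -0.25 with the length and GC trends removed. Cul1, a scaffold of the same ligase, had one of -0.16 (edgeR adjusted p 0.255).

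Of 12 tested genes of mitochondrial iron and iron-sulphur clusters, edgeR called 0, with 3 lower and 0 higher at an unadjusted p under 0.05. Over all genes the shares at that level were 12.2% lower and 11.7% higher. DESeq2 and limma each called 2 genes of this list lower. The median was -0.11. Slc25a37, mitoferrin, the importer of iron into erythroid mitochondria, averaged 805 ± 71.8 CPM in KO and 1091 ± 136 CPM in WT (SD, n = 3 each), a log2 fold change of -0.44 (edgeR adjusted p 0.0857). Abcb10, a transporter that binds mitoferrin, averaged 210 ± 14.4 CPM in KO and 281 ± 34.7 CPM in WT (SD, n = 3 each), a log2 fold change of -0.43 (edgeR adjusted p 0.0757). For both, every KO library was below every WT library, beside the lower erythroid markers.

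Of 9 tested genes of haem recycling, 1 was higher and 0 were lower, with a median of -0.01. Hp, haptoglobin, which binds free haemoglobin and in human neutrophils is stored in granules, averaged 1438 ± 257 CPM in KO and 856 ± 91.8 CPM in WT (SD, n = 3 each). It rose by 0.75 ± 0.14 (SE) on the log2 scale with an edgeR adjusted p of 0.0401; the call was lost without KO replicate 4 (0.134), WT replicate 1 (0.12), WT replicate 3 (0.0546) or WT replicate 4 (0.139) and with Xist as a covariate (0.0746), with values of 0.60 to 0.83 in these fits. Cd163, the macrophage receptor for haptoglobin with haemoglobin, had 10.6, 9.61 and 8.11 CPM in KO, against 17.3, 13.4 and 13.5 CPM in WT. KO lay below WT, and its log2 fold change was -0.64 (edgeR adjusted p 0.0564), and it was called lower by DESeq2 and by limma. Hmox2, a haem oxygenase, had a log2 fold change of 0.28 (edgeR adjusted p 0.118), which was 0.19 with the length and GC trends removed. Hmox1, the inducible haem oxygenase, averaged 81.4 ± 5.69 CPM in KO and 82.2 ± 18.7 CPM in WT (SD, n = 3 each), a log2 fold change of -0.01 (edgeR adjusted p 0.968) whose sign changed between settings.

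**Figure D5:**
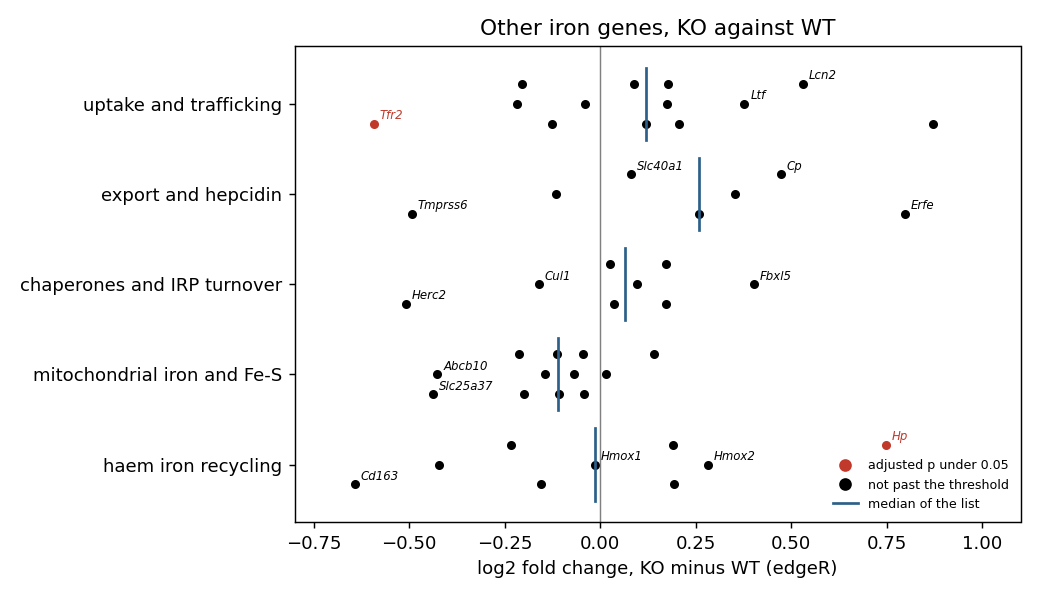
Log2 fold changes, KO minus WT, of the 49 tested genes of 5 other iron lists, 1 point per gene, with the genes named in the text labelled, a vertical line at each list's median and red for genes past the threshold. Hp is called higher and Tfr2 lower, and the other 47 did not pass the threshold.

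Over the 6 libraries, the genes whose log2 CPM followed that of Tfrc most closely were Runx3 (Pearson r 0.996), Mcm3 (0.995), Noc3l (0.985), Ddias (0.979) and Thap12 (0.977). For Fth1 they were Snhg5 (0.987), Grsf1 (0.978), Dph7 (0.974), Cd38 (0.969) and Eif1 (0.969), and for Slc11a1 they were Pradc1 (0.998), Abtb1 (0.996), Aph1c (0.995), Vps9d1 (0.991) and Rgl2 (0.99). These are the highest of 9555 candidates over 6 points that share libraries and scaling, given as a description only.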

How the data were processed

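The authors deposited raw counts of reads for each gene in 6 libraries. The submitters' processing notes name Trimmomatic 0.36, STAR 2.5.2b, featureCounts, Subread 1.5.2 and the build GRCm38. The sources used here do not give the annotation release, the strand setting or how reads with several matches were treated, so reads of overlapping opposite-strand genes may not be separable.

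Of 49315 identifiers, 49056 had a symbol in GENCODE M21, and those without one held 0.0171% of counts. The test, run in R 4.3.3 on edgeR 4.0.16, used filterByExpr, TMM factors of 0.948 to 1.04 and the quasi-likelihood test with robust fitting, two-sided, adjusted over all 16956 genes tested. On simulated counts, the procedure called 25.7% of genes changed 1.5-fold and 62.1% of genes changed 2-fold. A gene that did not pass may therefore still differ. CPM are TMM-scaled. Marker means used log2 of CPM plus 0.5. Alternatives used DESeq2 1.42.0, limma 3.58.1 and mgcv 1.9.3 for length and GC trends.

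Groups were taken from the genotype labels. The genes named in other lists were those past the threshold, the 3 with the smallest p per list, and Hamp, Slc40a1 and Hmox1, except that a gene of the mitochondrial list and an erythroid marker are not reported here by name. Genes like Tfrc, Fth1 and Slc11a1 were sought at a mean log2 CPM of at least 3. Members and lists were chosen with earlier results of these data known. Of 12 erythroid markers 11 were found.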

Additional observations from a re-analysis of the deposited data

How the results depend on the processing

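Counts of called genes moved most, and the cause was not tested. Higher in KO, 159 genes became 87 with library totals only, 653 with no filter, 834 with DESeq2, 495 with limma and 76 with Xist as a covariate, and 6 to 316 when 1 library was left out. Lower in KO, 258 became 403, 839, 743, 562 and 133 under those settings, and 23 to 604 when 1 library was left out. The share of calls that were higher was 38.1%, with 17.8% for library totals and 52.9% for DESeq2.

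Of the 9 iron genes, 1 was lower, and 2 were lower with library totals, no filter, a mean log2 CPM of at least 1, DESeq2, limma, or haemoglobin, mitochondrial and immunoglobulin genes left out. With the replicate block, Xist or the length and GC trends it was 0, and 0 to 1 when 1 library was left out. None was higher under any of the 16 settings. In the other lists, the 1 higher gene became 2 with no filter, the block and limma, 3 with DESeq2, 0 with Xist, and 0 to 2 when 1 library was left out. The 1 lower gene became 2 with library totals or those gene classes left out, 5 with no filter and DESeq2, 4 with limma, 0 with the block or the trends, and 0 to 2 when 1 library was left out.

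The log2 difference of the light to heavy chain ratio was 0.16 with the length and GC trends removed, an alternative chosen after seeing the data, and 0.27 to 0.31 when 1 library was left out. That of the receptor to ferritin ratio was -0.46 to -0.28 when 1 library was left out and -0.22 with the trends removed. Signs turned for Fth1 without KO replicate 3 (0.0276, with -0.1395 the lowest when 1 library was left out), Ireb2 with the trends removed (0.0684) and Slc40a1 without WT replicate 1 (-0.00223, with 0.152 the highest). They also turned for Hmox1 with the block (0.0937), with DESeq2 (0.000648) and without KO replicate 3 (0.0472), WT replicate 1 (0.1223) or WT replicate 4 (0.04), with -0.1882 the lowest.

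Replicate numbers 3 and 4 occur in both groups, and the labels do not say whether they pair. Their deviations correlated at 0.27 and -0.23, beside -0.28 to 0.24 for libraries of differing number. So few libraries cannot decide whether a shared number marks a pair or a batch. Replicate 1 occurs only in WT and replicate 2 only in KO. A difference between KO and WT within replicate numbers therefore rests on replicates 3 and 4 alone. With the replicate block, 212 genes were higher and 359 lower, the light to heavy chain difference was 0.27 and the receptor to ferritin difference -0.22. In that fit Steap3 (adjusted p 0.106) and Tfr2 (0.0933) were not called by edgeR and Fbxl5 was (0.0357), and the log2 fold changes of Tfrc and Slc11a1 were -0.12 and 0.05. DESeq2 gave no adjusted p for Tmprss6. The calls of Steap3, Tfr2 and Hp rest on 3 libraries a group, and a gene such as Hamp, at 1 to 7 counts, cannot be compared.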
